A study of Mus musculus with 24 samples.

Results

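The genes of the p53 response described here were chosen by symbol: Trp53, which encodes p53 itself, and 9 of its classical target genes, Mdm2, Cdkn1a, Ccng1, Bbc3, Pmaip1, Bax, Sesn1, Sesn2 and Gadd45a. Each gene was represented by the single-gene probe set with the highest mean over all tumours, and its other probe sets were read beside it. Of these 10 genes, 8 had a probe set under their own symbol, and all 8 lay above the filter on low values, out of 17097 genes measured and 13218 tested. Trp53 and Bax had no single-gene probe set in the probe-to-gene table and were not analysed here. All that follows therefore concerns 8 target genes and not the p53 transcript. Probe sets listed under several symbols were left out and were not searched for Trp53 or Bax.

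RNA was taken from 24 tumours of the mouse cortex, 1 array per tumour. The tumours grew from cells expressing RAB3A (6 tumours), BC74C (9 tumours) or ZNF668 (9 tumours), called the class gene by the labels. A second label named a tumour HGG in 4 cases (2 BC74C and 2 ZNF668 tumours), which the labels do not spell out, and ependymoma in 11 (2 RAB3A, 6 BC74C and 3 ZNF668 tumours), while 5 carried only the word TUMOR and 4 were UNKNOWN. RAB3A is a small GTPase of synaptic vesicles, ZNF668 is a zinc finger protein, and BC74C is not an approved gene symbol. The labels do not give the genotype, strain or age of the mice, the genotype of the starting cells, or whether each tumour came from a separate animal, and no tumour-free cortex is among the samples. P-values therefore measure only the spread between these tumours, and their precision is limited by how many arrays there are.

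The p53 protein is a transcription factor that is stabilised after DNA damage or oncogene signalling and switches on genes of cell cycle arrest, cell death, repair and metabolism. Mdm2 is both its target and its main inhibitor, a ubiquitin ligase that marks p53 for degradation. In the brain, p53 restrains the growth of neural progenitors, and gliomas often disable the pathway. Several of the targets also answer to other stress signals, so their level is not a measure of p53 alone.

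Promoter sequences, from RefSeq on GRCm38.p6, were listed for 9 of the 10 named genes (13 windows, each running from 250 bases before to 50 bases after a transcription start). Each was searched on both strands for the p53 half-site consensus of 10 bases, for a full site of 2 half-sites at most 13 bases apart, for the GC box GGGCGG and for CCAAT. Of all 32851 windows in the table, 8.36% held a half-site, 0.0731% a full site, 35.7% a GC box and 37.4% a CCAAT box. A half-site lay in 7 of the 13 windows, 1 window each of 7 genes, and a full site in 1. At least 1 window held a GC box in 7 genes and CCAAT in 7. A match describes letters only, not a bound site. The 250 bases before the start are printed for 3 genes, chosen after their values were seen: Cdkn1a and Mdm2 because they are the one pair in which a member followed another, and Ccng1 because it tracked proliferation. Capitals mark p53 half-sites.
Cdkn1a, chr17:29090729-29090978, plus strand: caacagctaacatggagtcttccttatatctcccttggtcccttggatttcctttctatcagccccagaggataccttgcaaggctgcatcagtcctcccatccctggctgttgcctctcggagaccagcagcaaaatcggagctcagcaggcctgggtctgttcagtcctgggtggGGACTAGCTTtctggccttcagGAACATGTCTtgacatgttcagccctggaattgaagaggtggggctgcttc
Mdm2, chr10:117710759-117711008, minus strand: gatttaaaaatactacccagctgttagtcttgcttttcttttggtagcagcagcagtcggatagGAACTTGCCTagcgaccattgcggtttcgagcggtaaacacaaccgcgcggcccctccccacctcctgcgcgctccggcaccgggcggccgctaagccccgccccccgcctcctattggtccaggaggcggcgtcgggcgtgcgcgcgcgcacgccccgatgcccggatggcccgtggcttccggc
Ccng1, chr11:40755287-40755536, minus strand: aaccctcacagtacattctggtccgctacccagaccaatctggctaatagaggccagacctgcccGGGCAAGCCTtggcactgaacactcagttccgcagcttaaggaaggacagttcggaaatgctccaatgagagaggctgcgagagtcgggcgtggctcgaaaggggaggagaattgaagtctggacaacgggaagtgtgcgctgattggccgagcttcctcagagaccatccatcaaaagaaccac
The printed Cdkn1a window carried both half-sites of the full match, which began 73 bases before this start, and held no GC box or CCAAT. A second Cdkn1a window, at another start, held 2 GC boxes and no p53 half-site. The single Mdm2 half-site began 186 bases before the start, beside 2 GC boxes and 1 CCAAT. In Ccng1 the half-site began 185 bases before the start. None of these half-sites overlapped a GC box or CCAAT.

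Markers of forebrain and glial tissue were read in the 24 tumours to check the labelled tissue. Log2 values ran from 8.69 to 11.38 for Sox2, 7.22 to 12.10 for Olig2, 8.34 to 12.32 for Gfap and 6.83 to 9.66 for Lhx2. They ran from 4.21 to 5.83 for Emx1 and 4.31 to 8.44 for Emx2, both genes of the dorsal forebrain, and from 3.07 to 6.49 for the progenitor gene Nes, whose lowest value was under the filter value of 3.76, while the neuronal gene Snap25 ran from 7.50 to 12.93. Tumours therefore differed widely in neuronal RNA, and in these bulk samples fewer cells of a type and less RNA per cell cannot be told apart. The mean of 22 neuron markers, of which 21 lay above the filter, was taken per tumour. It ran from 7.44 to 9.99 in RAB3A, from 6.53 to 9.79 in BC74C and from 4.96 to 9.53 in ZNF668 tumours. The mean of 22 proliferation markers ran from 4.91 to 8.87 in RAB3A, from 5.41 to 9.11 in BC74C and from 5.49 to 9.37 in ZNF668 tumours. Sample titles began with elw in 18 tumours and mmr in 6 (2 RAB3A, 1 BC74C and 3 ZNF668), and the labels do not say what these letters mean.

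Among the targets, those that varied most across the 24 tumours were Cdkn1a, Pmaip1 and Sesn2, with SDs of 0.98, 0.92 and 0.83 on the log2 scale, placing them at percentiles 88.6, 86.2 and 82.8 of the SDs of all tested genes. Gadd45a (0.75), Sesn1 (0.53), Ccng1 (0.45) and Bbc3 (0.43) were intermediate, at percentiles 78.7, 61.3, 50.6 and 48.5. Mdm2 varied least, with an SD of 0.23 at percentile 12.

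Class genes and tumour labels were compared with limma on 13218 genes, calling an adjusted p (Benjamini-Hochberg) under 0.05, and the comparisons of class genes share tumours. By limma, 0 of 8 members were called in any of the 4 comparisons. The share of all tested genes called was 0.0757% for RAB3A minus ZNF668, 0.303% for BC74C minus ZNF668, 0% for RAB3A minus BC74C and 0% for HGG minus ependymoma, so 0 of 8 is no departure from the background. At an unadjusted p under 0.05, 1 member (Gadd45a, RAB3A minus ZNF668) and 0 in the other comparisons were counted, against 9.21%, 6.88%, 8.21% and 1.73% of all genes. The members' median differences were -0.08, -0.02, -0.10 and -0.08, against medians of -0.04, 0.00, -0.04 and 0.00 over all genes.

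Mdm2, the inhibitor that closes the feedback loop on p53, had lowest, median and highest log2 values of 8.27, 8.59 and 8.77 in RAB3A tumours, 8.21, 8.51 and 8.78 in BC74C tumours and 8.0, 8.63 and 9.06 in ZNF668 tumours. The 3 ranges overlapped, and both extremes were ZNF668 tumours. The 4 HGG tumours had 8.72, 8.36, 8.80 and 8.51, against 8.27, 8.60 and 9.06 as the lowest, median and highest of ependymoma tumours, and all 4 HGG values lay inside the ependymoma range. Differences were -0.04 ± 0.13 (SE) for RAB3A minus ZNF668, -0.10 ± 0.12 for BC74C minus ZNF668, 0.06 ± 0.13 for RAB3A minus BC74C and -0.07 ± 0.14 for HGG minus ependymoma, and limma's adjusted p ranged from 0.895 to 1. A second Mdm2 probe set had a mean of 7.34 and correlated with the first at r = 0.22 over the 24 tumours. That is a weak likeness beside those of the second probe sets of Cdkn1a (0.94), Ccng1 (0.93), Sesn1 (0.94) and Sesn2 (0.72), so results on Mdm2 rest on which of its probe sets is read. The r of 0.22 pools both title prefixes and was not computed within each. By the second Mdm2 probe set the mmr tumours lay between 7.53 and 7.84, above most elw tumours. The first averaged 8.52 in mmr and 8.58 in elw titles.

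Cdkn1a encodes p21, the cyclin-dependent kinase inhibitor that carries out p53-driven cell cycle arrest. Its lowest, median and highest log2 values were 8.35, 9.27 and 10.37 in RAB3A tumours, 7.85, 8.70 and 11.06 in BC74C tumours and 6.95, 9.60 and 10.26 in ZNF668 tumours. The lowest ZNF668 tumour, replicate 9, stood far below the other 8, which lay between 9.13 and 10.26, while the BC74C tumours spread from 7.85 to 11.06 with no gap of that kind. Among HGG tumours the 2 with BC74C had 7.90 and 7.85 and the 2 with ZNF668 had 9.60 and 9.60, against 8.24, 9.26 and 11.06 as the lowest, median and highest of ependymoma tumours. Both HGG tumours with BC74C lay below all ependymomas, and both with ZNF668 lay inside their range. The differences were -0.09 ± 0.51, -0.30 ± 0.45 and 0.21 ± 0.51 between class genes, in the same order as for Mdm2. HGG minus ependymoma, with class gene as a covariate, was -0.95 ± 0.52, and its limma p of 0.0925 became 1 after adjustment. Without ZNF668 replicate 9 the differences were -0.40 for RAB3A minus ZNF668 and -0.60 for BC74C minus ZNF668, with limma's adjusted p at 0.615 and 0.684. Cdkn1a averaged 8.48 in mmr and 9.55 in elw titles, and BC74C minus ZNF668 was -0.57 with title prefix as a block, -0.50 in elw titles and -0.14 without BC74C replicate 7 or 9. HGG minus ependymoma was -0.60 with title prefix as a block and -0.59 by the second probe set.

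Gadd45a, a small protein of growth arrest and DNA repair, showed the lowest unadjusted p of any member. Its lowest, median and highest log2 values were 7.52, 8.56 and 8.89 in RAB3A tumours, 7.78, 9.0 and 10.51 in BC74C tumours and 8.32, 9.13 and 10.58 in ZNF668 tumours. All 6 RAB3A values lay below the ZNF668 mean, but only 2 lay below every ZNF668 tumour, so the groups overlapped. Mean log2 values were 8.40 ± 0.47 in RAB3A (SD, n = 6) and 9.24 ± 0.76 in ZNF668 tumours (SD, n = 9). The difference was -0.84 ± 0.36, with a limma p of 0.0269 that became 0.525 after adjustment. RAB3A minus BC74C was -0.63 ± 0.36 (limma adjusted p = 0.654), and BC74C minus ZNF668 was -0.21 ± 0.32. Neuron marker means averaged 8.89 in RAB3A and 7.69 in ZNF668 tumours, and with the neuron and proliferation means as covariates the Gadd45a difference was -0.52 (limma adjusted p = 0.979). Among tumours labelled ependymoma it was -0.34 (limma adjusted p = 1). The 4 HGG tumours had 8.32, 8.62, 9.32 and 10.51, of which 1 lay above the ependymoma range of 7.78 to 9.63 with its median of 8.89, and HGG minus ependymoma was 0.28 ± 0.40.

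**Figure D1:**
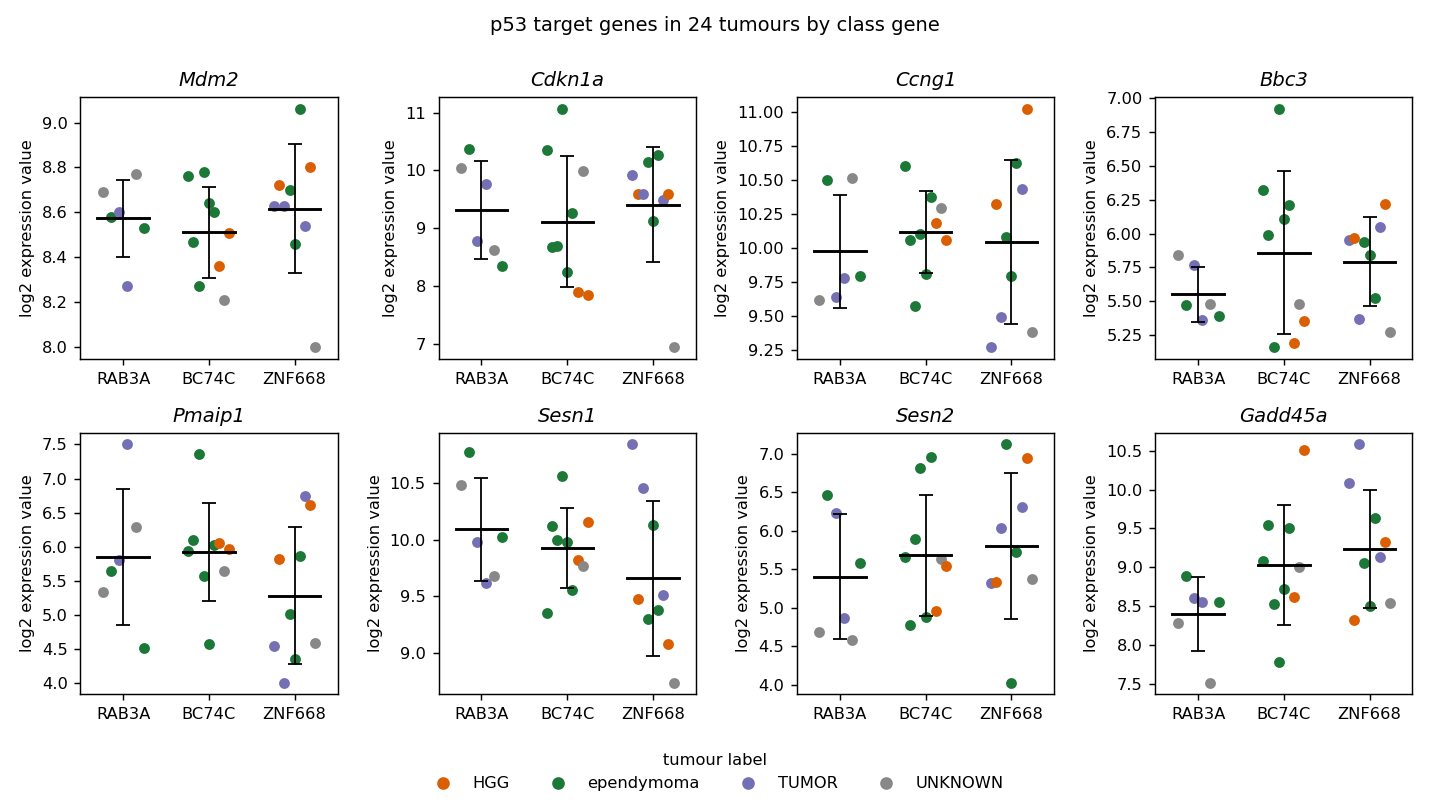
Log2 expression value (vertical axis) of 8 p53 target genes in each tumour, by class gene, with points coloured by tumour label, horizontal lines at the group mean and bars of 1 SD. In every panel the class genes overlap, and the isolated low Cdkn1a point at 6.95 is ZNF668 replicate 9.

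Ccng1 encodes cyclin G1, which recruits a phosphatase to Mdm2 and so feeds back on p53. It was bright in every tumour, at 9.62, 9.79 and 10.51 (lowest, median, highest) in RAB3A, 9.57, 10.10 and 10.60 in BC74C and 9.27, 10.08 and 11.02 in ZNF668 tumours. The 4 HGG tumours had 10.32, 10.18, 11.02 and 10.06, against 9.57, 10.08 and 10.62 in ependymomas, and 1 HGG tumour lay above all ependymomas. Differences were small against their errors, at -0.07 ± 0.24, 0.07 ± 0.21 and -0.14 ± 0.24 between class genes and 0.24 ± 0.23 for HGG minus ependymoma.

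The apoptosis genes Bbc3 and Pmaip1 encode PUMA and NOXA, BH3-only proteins that disarm the survival members of the Bcl-2 family. Bbc3 log2 values were 5.36, 5.47 and 5.84 (lowest, median, highest) in RAB3A, 5.16, 5.99 and 6.92 in BC74C and 5.27, 5.94 and 6.22 in ZNF668 tumours. The RAB3A tumours were tightly grouped inside the ranges of the other class genes. HGG tumours divided by class gene for Bbc3, with 5.19 and 5.35 in the 2 with BC74C and 5.97 and 6.22 in the 2 with ZNF668, against 5.16, 5.94 and 6.92 in ependymomas. Pmaip1 ranged more widely, with 4.52, 5.73 and 7.50 in RAB3A, 4.58, 5.97 and 7.36 in BC74C and 4.01, 5.01 and 6.74 in ZNF668 tumours. Of the BC74C tumours 8 of 9, and of the RAB3A tumours 5 of 6, lay above the ZNF668 mean of 5.28, yet the ranges overlapped. All 4 HGG tumours (5.82, 6.05, 6.61 and 5.97) lay above the ependymoma mean of 5.54, inside the ependymoma range of 4.35 to 7.36.

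For Bbc3 the differences were -0.24 ± 0.23 for RAB3A minus ZNF668, 0.07 ± 0.21 for BC74C minus ZNF668, -0.31 ± 0.23 for RAB3A minus BC74C and -0.33 ± 0.30 for HGG minus ependymoma. For Pmaip1 they were 0.57 ± 0.46, 0.63 ± 0.41, -0.06 ± 0.46 and 0.55 ± 0.45 in the same order, and limma's adjusted p was 0.633 or more in each. RAB3A minus ZNF668 for Pmaip1 was 1.14 in elw titles, 0.01 in tumours labelled ependymoma and 0.24 without RAB3A replicate 4.

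Sesn1 and Sesn2 encode sestrins, which restrain mTORC1 and limit oxidative damage, and Sesn2 also responds to nutrient stress. Sesn1 had log2 values of 9.62, 10 and 10.77 (lowest, median, highest) in RAB3A, 9.35, 9.98 and 10.56 in BC74C and 8.74, 9.48 and 10.84 in ZNF668 tumours, the last group enclosing the others. HGG tumours had 9.48, 9.82, 9.08 and 10.16, against 9.30, 10 and 10.77 in ependymomas, with 1 HGG tumour below all of them. Sesn2 was dimmer, at 4.58, 5.23 and 6.46 in RAB3A, 4.78, 5.63 and 6.96 in BC74C and 4.03, 5.72 and 7.12 in ZNF668 tumours. Its HGG values of 5.34, 4.96, 6.95 and 5.54 lay inside the ependymoma range of 4.03 to 7.12, whose median was 5.72.

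The sestrins had differences of opposite sign for RAB3A minus ZNF668, neither past the test, at 0.44 ± 0.26 for Sesn1 (limma adjusted p = 0.563) and -0.40 ± 0.43 for Sesn2 (limma adjusted p = 0.715). BC74C minus ZNF668 was 0.27 ± 0.24 for Sesn1 and -0.12 ± 0.39 for Sesn2, RAB3A minus BC74C was 0.17 ± 0.26 and -0.28 ± 0.43, and HGG minus ependymoma was -0.11 ± 0.24 and -0.09 ± 0.58.

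Ordered by mean level, ZNF668 tumours were highest for Mdm2, Cdkn1a, Sesn2 and Gadd45a, BC74C tumours for Ccng1, Bbc3 and Pmaip1, and RAB3A tumours for Sesn1. Of the 16 steps between neighbouring class genes in these orders, 0 exceeded the larger of the 2 SDs and 2 the smaller. Groups that are not neighbours can lie farther apart. For Gadd45a, ZNF668 (9.24 ± 0.76, SD) and RAB3A tumours (8.40 ± 0.47, SD) differed by more than either SD. By tumour label the highest means belonged to ependymoma for Mdm2 (8.62), Bbc3 (5.90) and Sesn2 (5.81), to HGG for Ccng1 (10.39) and Pmaip1 (6.11), and to TUMOR for Cdkn1a (9.51), Sesn1 (10.08) and Gadd45a (9.39). UNKNOWN tumours were lowest for Mdm2 (8.42), Bbc3 (5.52), Pmaip1 (5.47), Sesn2 (5.07) and Gadd45a (8.33). Of the 24 steps between neighbouring labels, 0 exceeded the larger SD and 3 the smaller. Among labels that are not neighbours, means lay farther apart than either SD for 3 genes. TUMOR and UNKNOWN had 9.39 ± 0.91 and 8.33 ± 0.62 (SD) for Gadd45a, and 5.75 ± 0.63 and 5.07 ± 0.52 for Sesn2. HGG and TUMOR had 10.39 ± 0.43 and 9.72 ± 0.44 (SD) for Ccng1.

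**Figure D2:**
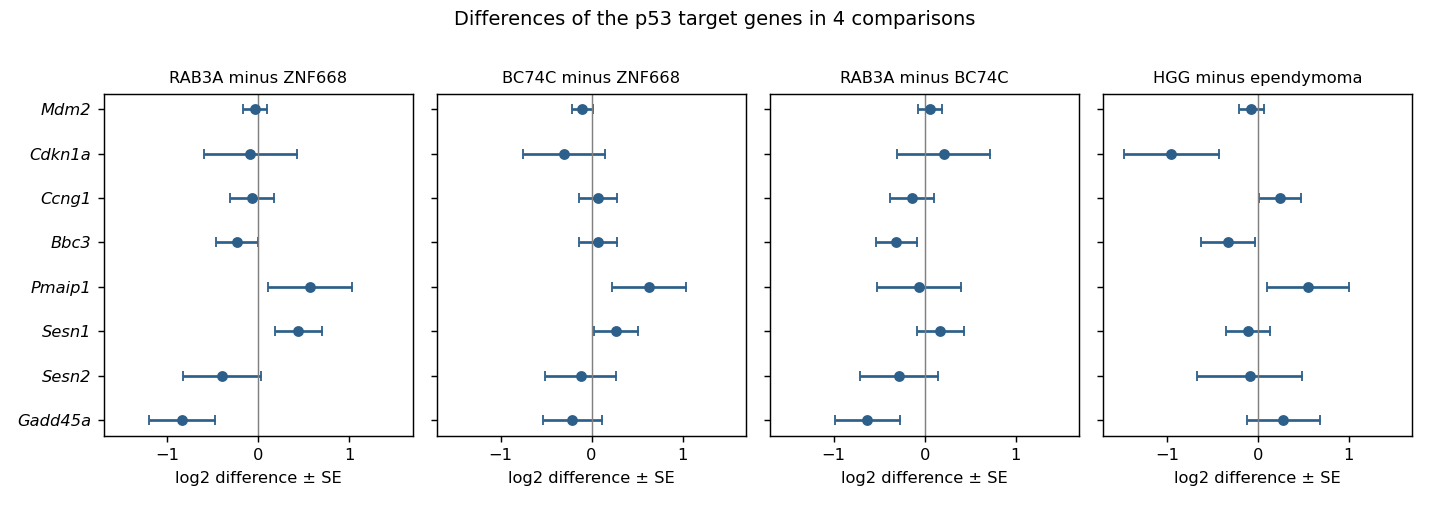
Log2 difference (horizontal axis) of each of 8 p53 target genes in 4 comparisons, with bars of 1 SE from limma and a line at 0. Gadd45a for RAB3A minus ZNF668 (-0.84 ± 0.36) and Cdkn1a for HGG minus ependymoma (-0.95 ± 0.52) lie farthest from 0, and neither passed after adjustment.

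A wider list of 69 further genes of the p53 pathway was read in the same fits, of which 62 were measured and 59 tested. Among the genes left below the filter was Cdkn2a, whose Arf product frees p53 from Mdm2. Its single probe set lay between 2.81 and 4.16 in the 24 tumours, and its mean of 3.18 was under the filter value of 3.76. Of the 59 genes, 0 were called in any of the 4 comparisons, against the same background shares as above. At an unadjusted p under 0.05, 1 was higher and 4 were lower for RAB3A minus ZNF668, 1 and 1 for BC74C minus ZNF668, 1 and 1 for RAB3A minus BC74C, and 0 and 1 for HGG minus ependymoma. Their median differences were -0.06, -0.09, 0.03 and 0.00.

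The wider list was ranked by moderated t in each comparison, and the 3 genes at either end are named. For RAB3A minus ZNF668 the highest were Usp7, a deubiquitinase that stabilises Mdm2 (0.24 ± 0.10), Ppp1r13b (0.88 ± 0.55) and the acetyltransferase gene Crebbp (0.60 ± 0.39). The lowest were Polk, a translesion polymerase (-0.34 ± 0.14), Phlda3, a p53-induced repressor of Akt (-0.59 ± 0.26), and Phlda1 (-0.80 ± 0.36), and limma's adjusted p over the 6 genes ran from 0.525 to 0.579. For BC74C minus ZNF668 the highest were Gpx1, a peroxide-removing enzyme (0.35 ± 0.12), Siva1 (0.35 ± 0.23) and Tigar, a regulator of glycolysis (0.24 ± 0.23). The lowest were Apaf1, the scaffold of the apoptosome (-0.43 ± 0.19), Trp53bp2 (-0.38 ± 0.21) and Mdm4, a relative and partner of Mdm2 (-0.24 ± 0.15), with limma's adjusted p from 0.364 to 0.959. For RAB3A minus BC74C the highest were Usp7 (0.33 ± 0.10), Mapk14 (0.22 ± 0.13) and Crebbp (0.59 ± 0.39). The lowest were Phlda3 (-0.57 ± 0.26), Chek2 (-0.65 ± 0.35) and Gpx1 (-0.24 ± 0.14), with limma's adjusted p from 0.327 to 0.701. For HGG minus ependymoma the highest were Sesn3 (0.48 ± 0.23), another sestrin gene, Atr (0.61 ± 0.38) and Gpx1 (0.24 ± 0.16), and the lowest were Plagl1, a zinc finger regulator of arrest and apoptosis (-1.10 ± 0.29), Plk3 (-0.37 ± 0.19) and Gadd45b (-0.45 ± 0.36). Plagl1 averaged 9.75 ± 0.53 in HGG (SD, n = 4) and 10.79 ± 0.52 in ependymoma tumours (SD, n = 11), and its limma p of 0.00186 became 1 after adjustment over 13218 genes, as did those of the other genes named for this comparison. None of the named genes passed the test.

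Whether the targets vary together was asked over the 24 tumours in 28 pairs. Correlations were positive in 20 of 28 pairs, with a median r of 0.13. After Benjamini-Hochberg adjustment over the 28 pairs, 0 passed by Pearson's r and 0 by Spearman's rho in permutation tests, and 5 and 6 had an unadjusted p under 0.05. As background, every tested gene was fitted with limma on the level of 1 member, as described below. An unadjusted p under 0.05 was reached by 34.5% of genes on Mdm2, 28.4% on Ccng1, 28.3% on Gadd45a and 24.7% on Bbc3. It was reached by 21.4% on Sesn2, 14.3% on Sesn1, 11.1% on Cdkn1a and 4.13% on Pmaip1. The pair counts are therefore not read as particular to the targets. The highest r values fell among Mdm2, Cdkn1a, Bbc3 and Ccng1. Mdm2 and Cdkn1a had r = 0.55 (permutation p = 0.00598, adjusted p = 0.0972) and rho = 0.48 (adjusted p = 0.161). Their r was 0.32 without the 2 tumours whose Mdm2 level was most extreme, 0.46 within elw titles and 0.80 within the 6 mmr titles. Leaving out ZNF668 replicate 9 alone brought it to 0.38 (adjusted p = 0.261), and leaving out BC74C replicate 8 brought it to 0.64 (adjusted p = 0.0294).

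Mdm2 and Bbc3 had r = 0.51 (permutation p = 0.0104, adjusted p = 0.0972) and rho = 0.61 (adjusted p = 0.051), and r was 0.63 without the 2 farthest tumours, 0.50 within elw and 0.55 within mmr titles. Without ZNF668 replicate 6 it was 0.65 (adjusted p = 0.0255). Cdkn1a and Bbc3 had r = 0.52 (permutation p = 0.00857, adjusted p = 0.0972) and rho = 0.41 (adjusted p = 0.201), with 0.44 without the 2 farthest tumours, 0.38 within elw and 0.90 within mmr titles. These 3 pairs passed when arrays were centred on their medians, with r = 0.61, 0.55 and 0.55 and adjusted permutation p-values of 0.044, 0.0495 and 0.0495. Mdm2 and Ccng1 had r = 0.48 (adjusted p = 0.12), with 0.30 both without the 2 farthest tumours and within elw titles, and 0.88 within mmr titles. Ccng1 and Pmaip1 had r = 0.45 (adjusted p = 0.155), with 0.34 without the 2 farthest tumours, 0.25 within elw and 0.88 within mmr titles. The mmr values rest on 6 tumours, among them ZNF668 replicate 9, the lowest of the 24 for Mdm2 and Cdkn1a.

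Ccng1 and Sesn1 had r = -0.39 (permutation p = 0.0573, adjusted p = 0.262) and rho = -0.45 (adjusted p = 0.161). Their r was -0.16 without the 2 tumours with the most extreme Ccng1 level, -0.53 within elw titles and 0.02 within mmr titles. Without ZNF668 replicate 9, low in both genes, it was -0.64 (adjusted p = 0.0319). Gadd45a and Sesn2 had no pair with an unadjusted p under 0.05. The sestrins themselves had r = -0.15 (adjusted p = 0.805).

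**Figure D3:**
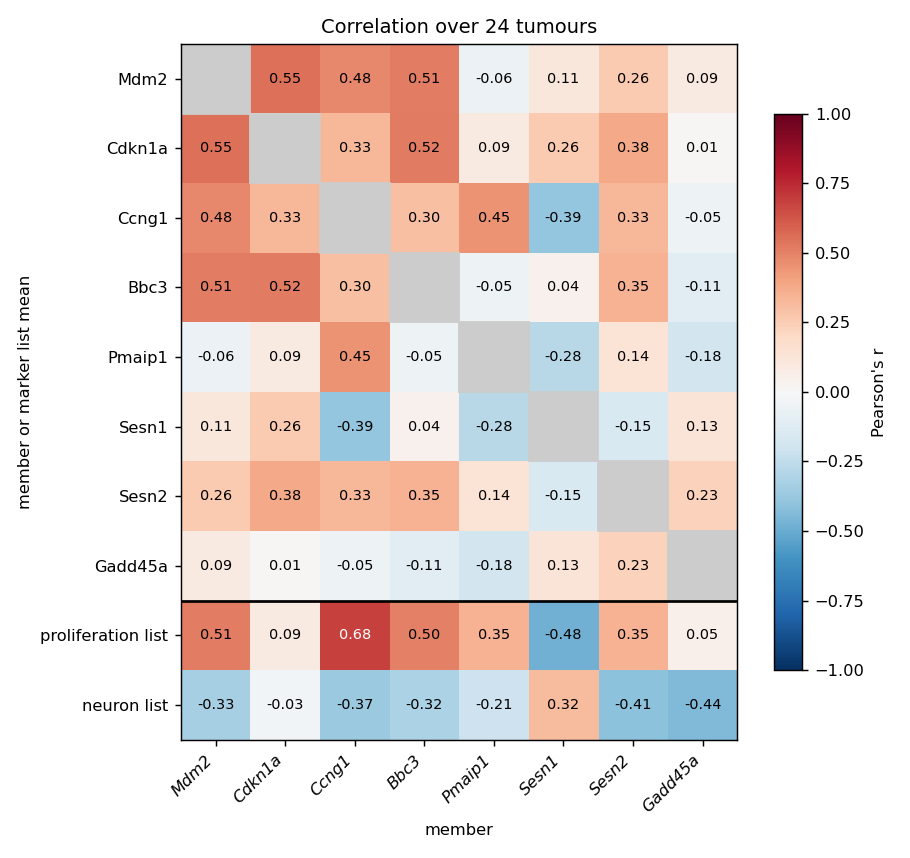
Pearson's r over 24 tumours between 8 p53 target genes (columns and upper rows) and between each gene and the mean of the proliferation and neuron marker lists (the 2 lowest rows), with colour from -1 (blue) to 1 (red). The largest values among pairs of genes are 0.55, 0.52 and 0.51, among Mdm2, Cdkn1a and Bbc3, and Ccng1 reaches 0.68 with the proliferation list.

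The same question was put to every tested gene at once, by fitting each with limma on the log2 level of 1 member at a time. A gene is said to follow a member if its slope passed after adjustment over the other 13217 genes. Of 56 ordered pairs of members, 1 passed. Cdkn1a changed by 2.35 ± 0.73 on the log2 scale per log2 unit of Mdm2 (limma adjusted p = 0.0366). It was 1 of the 7 other members fitted on Mdm2, no departure from the 14.7% of all genes that followed Mdm2. The reverse fit, Mdm2 on Cdkn1a, did not pass (limma adjusted p = 0.325), where 0% of all genes followed Cdkn1a and 11.1% had an unadjusted p under 0.05. The call of Cdkn1a was lost in 7 of 24 fits that left out 1 tumour. Its limma adjusted p was 0.258 with a slope of 1.66 without ZNF668 replicate 9, and it was 0.0562 without BC74C replicate 1, 0.0671 without BC74C replicate 3 and 0.0602 without BC74C replicate 7. It was 0.0503 without ZNF668 replicate 2, 0.0529 without ZNF668 replicate 6 and 0.0516 without ZNF668 replicate 8. Without ZNF668 replicate 9 only 1 gene of all those tested still followed Mdm2, against 1946 with it. With the second Mdm2 probe set the slope was -0.55 (limma adjusted p = 0.767), and 0 genes followed it. Its r with Cdkn1a was -0.17 with both title prefixes pooled. By that probe set the mmr tumours lay between 7.53 and 7.84. Of the elw titles, only BC74C replicate 4 (7.85) and replicate 6 (7.66) were above 7.53. Cdkn1a averaged 8.48 in mmr and 9.55 in elw titles, and its relation to the second Mdm2 probe set was not computed within each prefix. The pooled slope and r include this offset between prefixes, so they do not give the sign of the relation within a prefix.

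The other members had fewer followers or none among all tested genes. The share was 6.76% for Ccng1, 1.98% for Gadd45a, 0.817% for Sesn1 and 0.00757% for Bbc3, and it was 0% for Pmaip1 and for Sesn2, where 4.13% and 21.4% had an unadjusted p under 0.05. With the neuron and proliferation list means as covariates the shares were 0.288% for Mdm2, 0.439% for Cdkn1a, 7.85% for Sesn1, and 0% for each of Ccng1, Bbc3, Pmaip1, Sesn2 and Gadd45a. In those fits 0 of the 56 ordered pairs passed, and Cdkn1a on Mdm2 had a slope of 2.93 ± 0.85 (limma adjusted p = 0.081).

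Of the wider pathway list, 7 of 59 genes followed Mdm2, all upward, which is 11.9% against 14.7% of all genes, of which 956 went up and 990 down. They were Chek1, a checkpoint kinase, Ppm1d, the phosphatase WIP1 that switches the response off, Trp53inp1, a cofactor of p53-driven death, Apaf1, Pidd1, a caspase-2 activator, Eda2r, a death receptor, and Rps27l, a ribosomal protein gene induced by p53. Chek1, Aen, a nuclease of apoptosis, Pidd1 and Rps27l followed Ccng1, 6.78% of the list against 6.76% of all genes. Trp63, a p53 relative, followed Sesn1, 1.69% of the list against 0.817%. With the list means as covariates, 0 of the 59 genes followed Mdm2 and 0 followed Ccng1, against 0.288% and 0% of all genes. In the same fits Ppm1d, Sirt1, Trp63 and Trp53inp1 followed Sesn1 upward and Trp53bp1 and Phlda3 downward, 10.2% of the list against 7.85%. Apart from the single gene at Sesn1, these shares of the list lay near those of all genes.

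**Figure D4:**
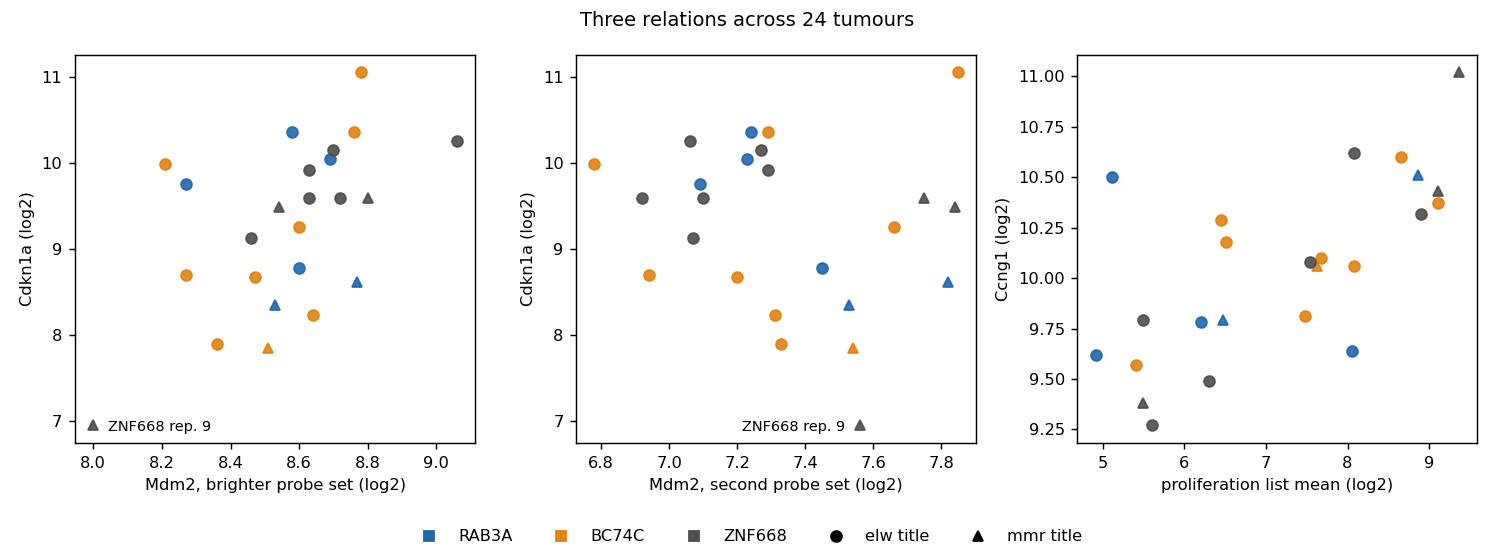
Levels of 24 tumours, coloured by class gene with circles for elw and triangles for mmr titles: Cdkn1a against the brighter Mdm2 probe set, Cdkn1a against the second Mdm2 probe set, and Ccng1 against the mean of the proliferation markers, all in log2. The low point ZNF668 replicate 9 lies at the end of the first relation (r = 0.55). With the second Mdm2 probe set r is -0.17 over both title prefixes together, and Ccng1 is higher where proliferation markers are higher (r = 0.68).

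The targets were also set against the means of the proliferation and neuron markers. Of 16 relations between members and the 2 list means, 1 passed by Pearson's r after adjustment, Ccng1 with proliferation at r = 0.68 (permutation p = 0.00026, adjusted p = 0.00416) and rho = 0.70 (adjusted p = 0.00304). It was 0.80 without the 2 farthest tumours, 0.53 within elw titles and 0.96 within mmr titles. By Spearman's rho, Mdm2 (0.52, adjusted p = 0.0403) and Bbc3 (0.59, adjusted p = 0.0248) passed upward with proliferation, Sesn1 (-0.53, adjusted p = 0.0403) downward, and Gadd45a (-0.50, adjusted p = 0.0425) downward with neuron markers. Pearson's r for these was 0.51, 0.50, -0.48 and -0.44, with adjusted permutation p-values from 0.0597 to 0.1. Cdkn1a had r = 0.09 with proliferation (adjusted p = 0.789).

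A limma fit of every gene on each list mean, added after the data were seen, put this against the background. Proliferation markers were followed by 39% of all tested genes, 2680 upward and 2476 downward, and neuron markers by 47.8%, 2660 upward and 3656 downward. Of the 8 members 4 followed proliferation, namely Ccng1 (slope 0.21 ± 0.05, limma adjusted p = 0.00105), Bbc3 (0.15 ± 0.06, adjusted p = 0.0362), Mdm2 (0.08 ± 0.03, adjusted p = 0.0432) and Sesn1 (-0.18 ± 0.07, adjusted p = 0.0343). Only Gadd45a followed neuron markers (-0.25 ± 0.10, limma adjusted p = 0.0475). In the wider list 17 of 59 genes followed proliferation upward and 3 downward, and 4 followed neuron markers upward and 16 downward. Of the 8 upstream kinases and sensors 5 rose with proliferation, with slopes of 0.79 ± 0.05 for Chek1, 0.41 ± 0.06 for Chek2, 0.27 ± 0.07 for Atr, 0.25 ± 0.04 for Atm and 0.17 ± 0.05 for Prkdc. Mapk14 (0.03 ± 0.04), Hipk2 (-0.02 ± 0.03) and Trp53bp1 (-0.02 ± 0.05) did not pass. Of the 13 apoptosis targets 6 rose and 1 fell, and of the 14 arrest and growth targets 1 rose and 0 fell. Among the risers were Fas (0.39 ± 0.12), a death receptor, Rps27l (0.29 ± 0.04), Siva1 (0.28 ± 0.05), a death-receptor adaptor, and Pidd1 (0.25 ± 0.04). Ppp1r13b, the p53 cofactor ASPP1 (-0.54 ± 0.11), Perp, a desmosomal p53 target (-0.34 ± 0.09), and Pmm1, a phosphomannomutase (-0.12 ± 0.04), fell. Against neuron markers, 4 of the 8 upstream kinases and sensors fell and 0 rose. Their slopes were -0.70 ± 0.12 for Chek1, -0.38 ± 0.08 for Chek2, -0.30 ± 0.07 for Atr and -0.26 ± 0.05 for Atm. Of the 13 apoptosis targets 6 fell and 1 rose with neuron markers, and of the 14 arrest and growth targets 1 fell and 0 rose. The 2 list means were fitted separately, so a tie to 1 of them alone was not tested.

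For each member the 3 genes with the highest r over the 24 tumours are a description, with no reading of shared function. Mdm2 was most like Cdk13 (r = 0.82), Ccnd3 (0.81) and Zbtb2 (0.81), and Cdkn1a was most like Spsb1 (0.77), Slc3a2 (0.76) and Bet1l (0.73). Ccng1 was most like Sf3b3 (0.83), Rbm15 (0.82) and Gemin6 (0.81). Bbc3 had Ltb4r1 (0.79), Gabpb1 (0.73) and Cep76 (0.73), and Pmaip1 had Slc16a6 (0.69), Mrpl57 (0.67) and Wee1 (0.66). Sesn1 lay closest to Aldh6a1 (0.86), Txnip (0.81) and Klf15 (0.81), and Sesn2 to Fgd1 (0.77), Pik3r1 (0.77) and Prpf4 (0.74). For Gadd45a they were Loxl3 (0.81), Ermard (0.80) and Zfp949 (0.79). No member of the group was among the 3 nearest of another.

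Tumour by tumour, no sample was among the 6 highest, or among the 6 lowest, for all 8 members. BC74C replicate 4 was among the 6 highest of 24 for 5 of 8 members (Mdm2, Cdkn1a, Bbc3, Sesn1 and Sesn2) and among the 6 lowest for Gadd45a, with a mean of 0.82 SDs above the genes' means. ZNF668 replicate 8 was among the 6 highest for Mdm2, Ccng1, Bbc3, Pmaip1 and Sesn2 and among the 6 lowest for Sesn1, with a mean of 0.77. RAB3A replicate 2 was among the 6 highest for Cdkn1a, Ccng1, Sesn1 and Sesn2. BC74C replicate 1, ZNF668 replicate 6 and ZNF668 replicate 7 were also among the 6 highest for 4 members each. At the other end, BC74C replicate 3 and ZNF668 replicate 5 were among the 6 lowest for 4 members each. ZNF668 replicate 9 was among the 6 lowest for 6 of 8 members, all but Sesn2 and Gadd45a, with a mean of -1.46. That tumour, labelled UNKNOWN with an mmr title, had a neuron marker mean of 9.11 and a proliferation marker mean of 5.49. The tumours with the highest neuron marker means, RAB3A replicate 1 at 9.99 and BC74C replicate 8 at 9.79, had member means of -0.09 and -0.14.

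**Figure D5:**
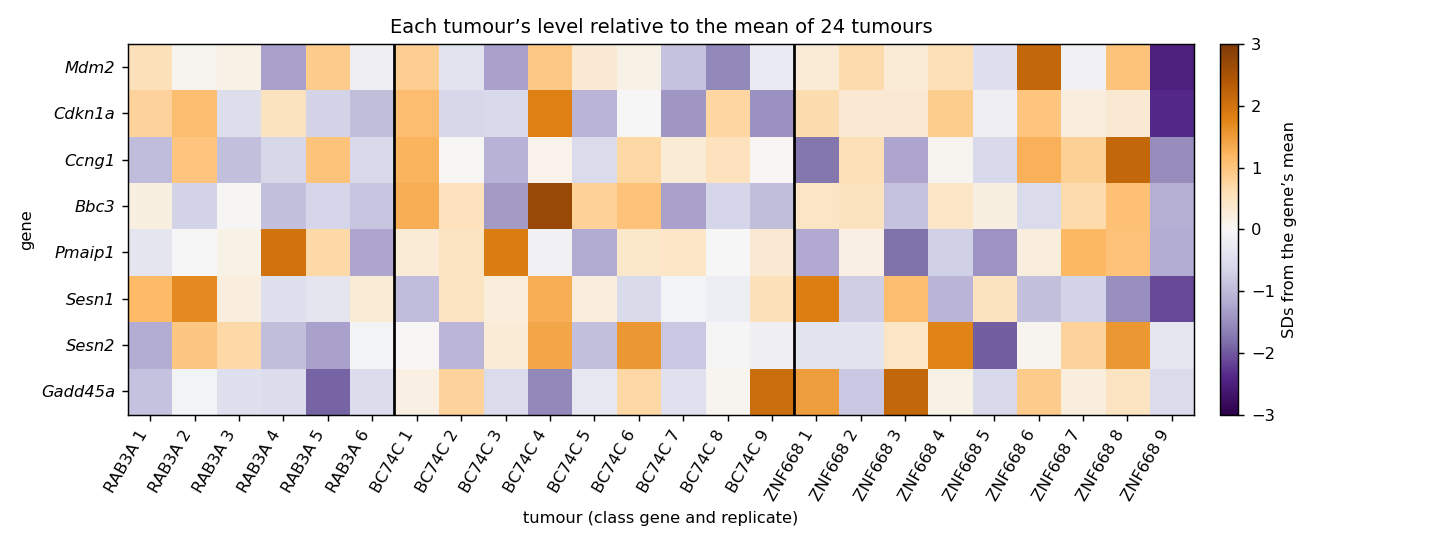
Level of 8 p53 target genes (rows) in 24 tumours (columns, by class gene and replicate), as SDs from each gene's mean, brown above and purple below. BC74C replicate 4 is brown in most rows (mean 0.82) and ZNF668 replicate 9 purple in most (mean -1.46), while most tumours mix both.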

How the data were processed

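RNA of 24 tumours was extracted with Trizol and hybridised to 1 single-colour Affymetrix array each, per the labels' protocols. The authors deposited 1 log2 value per probe set and tumour, made with Partek 6.6 per the submitters' processing notes. Background correction and normalization are not given in the sources used here. Array medians lay between 4.98 and 5.19.

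Of 45141 probe sets, 104 controls, 551 with several symbols and 15588 with none were left out. Genes with a mean under 3.76, the 30th percentile over probe sets, were not tested. Comparisons used limma 3.58.1 (lmFit, eBayes with an intensity trend) in R 4.3.3, two-sided. Class genes were compared in a single model of 24 tumours, HGG with ependymoma in 15 tumours with class gene as a covariate. Correlations used 100000 permutations in numpy 2.4.6, with ranks from scipy 1.17.1.

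On simulated data of 13218 genes, log2 changes of 1 were recovered in 63% of altered genes for RAB3A minus ZNF668, 70% for BC74C minus ZNF668, 57% for RAB3A minus BC74C and 56% for HGG minus ependymoma. The simulations altered many genes at once in noise that was independent between genes, which makes the adjustment milder. In the tumours 10, 40, 0 and 0 genes were called in the same order. The recovered shares are therefore not the chance of calling such a change in a member here.

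The members and gene lists were chosen with earlier results of these data known. Named genes of the wider list were the called ones, or otherwise those at the extremes of t. With 2 of the 10 genes lacking a single-gene probe set, 28 pairs and 16 list relations were tested. Alternatives are described with their effects in the closing section.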

Additional observations from a re-analysis of the deposited data

Results flagged for a closer look

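Cdkn1a in ZNF668 tumours had a sample far from the others. Replicate 9 stood at a log2 value of 6.95, while the other 8 tumours lay between 9.13 and 10.26. Its gap to the nearest tumour was 0.658 of the group's range, above Dixon's critical value of 0.493 for 9 samples. It was the only such sample in 32 groups of member values tested, and chance flags about 1 group in 20.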

How the results depend on the processing

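In every alternative run, limma called 0 members in each of the 4 comparisons. Over all genes, the count called for RAB3A minus ZNF668 was 10, and 21 with elw titles only, 0 with list means as covariates, 0 with only the 2 class genes compared, 0 in ependymomas, 6 without the filter and 0 to 40 with a tumour left out. For BC74C minus ZNF668 it was 40, and 0 in ependymomas and 25 to 63 with a tumour left out. For RAB3A minus BC74C it was 0, and 0 to 4 under the alternatives.

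Uncalled differences that changed sign were as follows, and the cause was not tested. With second probe sets, Mdm2 was 0.08 for RAB3A minus ZNF668, 0.00 for BC74C minus ZNF668 and 0.13 for HGG minus ependymoma, and for BC74C minus ZNF668 Ccng1 was -0.07 and Sesn2 0.36. With list means as covariates, Ccng1 was 0.02 for RAB3A minus ZNF668, -0.02 for BC74C minus ZNF668 and 0.04 for RAB3A minus BC74C, Sesn2 was 0.00 and Gadd45a 0.13 for BC74C minus ZNF668, Pmaip1 was 0.15 for RAB3A minus BC74C and Sesn1 0.01 for HGG minus ependymoma. In ependymomas only, Sesn2 was 0.40 for RAB3A minus ZNF668, 0.21 for BC74C minus ZNF668 and 0.19 for RAB3A minus BC74C, Ccng1 was -0.08 for BC74C minus ZNF668 and 0.06 for RAB3A minus BC74C, and for the last comparison Mdm2 was -0.03 and Cdkn1a -0.02. With elw titles only, Sesn1 was -0.04 and Sesn2 0.10 for BC74C minus ZNF668, Pmaip1 was 0.16 for RAB3A minus BC74C and Gadd45a -0.48 for HGG minus ependymoma. With title prefix as a block, HGG minus ependymoma was 0.03 for Sesn1 and -0.15 for Gadd45a.

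Of 268 member differences under the alternatives other than leaving out a tumour, 93 moved by over 1.5 times or changed sign and 18 moved by more than their SE in all tumours, as did 155 and 1 of 696 with a tumour left out. Beyond those above and in the report, in ependymomas only, where RAB3A has 2 tumours, Mdm2 was -0.18 and Sesn1 0.79 for RAB3A minus ZNF668, Bbc3 was 0.35 for BC74C minus ZNF668, and Bbc3 was -0.69, Pmaip1 -0.84, Sesn1 0.47 and Gadd45a -0.14 for RAB3A minus BC74C.

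With 1 tumour left out, RAB3A minus ZNF668 ran from -0.12 to 0.02 for Mdm2, -0.40 to 0.11 for Cdkn1a and -0.18 to 0.05 for Ccng1. BC74C minus ZNF668 ran from -0.03 to 0.19 for Ccng1, -0.07 to 0.15 for Bbc3 and -0.34 to 0.04 for Sesn2. RAB3A minus BC74C ran from -0.00 to 0.45 for Cdkn1a and -0.39 to 0.20 for Pmaip1. HGG minus ependymoma ran from -0.23 to 0.01 for Sesn1, -0.48 to 0.18 for Sesn2 and -0.24 to 0.55 for Gadd45a.

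Ordered pairs of members that passed, 1 in all tumours, numbered 2 with class gene as a covariate and 2 with centred arrays (Cdkn1a and Bbc3 on Mdm2). They numbered 0 with list means as covariates, 0 with elw titles, 0 with the second Mdm2 probe set and 0 to 2 with a tumour left out. By the second Mdm2 probe set Cdkn1a had a slope of -0.55 with both title prefixes pooled. Correlated pairs, 0 in all tumours, numbered 3 with centred arrays and 0 to 1 with a tumour left out. The r of Mdm2 and Cdkn1a was -0.03 by their second probe sets, with both title prefixes pooled. That of Ccng1 and Bbc3 was -0.09 after the list means were removed, and that of Ccng1 and Sesn1 was 0.02 in mmr titles.

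No paired analysis was possible because replicate numbers follow the order of deposit. Signal over background could not be assessed from the deposited values, which bears most on the dimmer Bbc3, Pmaip1 and Sesn2.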
